A study of Mus musculus with 6 samples.

Results

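Protein tyrosine phosphatases and dual-specificity phosphatases were followed through the induction of PU.1 in a mouse pro-B cell line. Their genes were taken as the rows of the deposited gene table whose symbol begins with Ptpr and a letter, or with Ptpn or Dusp and a digit. The rule uses symbols alone, but it was set with earlier results of these data known. This gave 64 of 23793 rows. The set held 21 receptor protein tyrosine phosphatases, 17 non-receptor protein tyrosine phosphatases, 24 dual-specificity phosphatases and 2 rows that match the spelling but encode no phosphatase. Those 2 were Ptprcap, a membrane protein bound to CD45, and Ptprtos, an antisense transcript of Ptprt.

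The cells were i660BM, C57BL/6 pro-B cells that grow in medium with interleukin 7. The line carries a PU.1 gene switched on by doxycycline. In all, 3 non-induced libraries (titled Control) were compared with 3 induced libraries (titled Treat, 70 ng/ml doxycycline for 48 h). No library had doxycycline without the induction of PU.1, so the drug and PU.1 cannot be told apart. All 6 libraries came from 1 line, and the labels name no separate cultures, so the tests may measure technical spread only.

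Protein tyrosine phosphatases remove phosphate from tyrosine and so oppose the kinases that carry signals from antigen and cytokine receptors. Receptor members span the membrane, and CD45, the product of Ptprc, activates Src family kinases in lymphocytes. Non-receptor members act in the cytosol, among them SHP-1 (Ptpn6), which is recruited by inhibitory receptors and dampens B cell receptor signalling. Dual-specificity phosphatases act on tyrosine and on serine or threonine, and one branch of them, the MAP kinase phosphatases, switches off ERK, JNK and p38. PU.1 is an ETS family factor, which binds purine-rich DNA with a GGAA core.

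The table holds 1 FPKM value per gene and group (fragments scaled by transcript length and by sequencing depth), with no value per library. All levels below are these values of the authors, and no standard deviation between libraries can be given. Low values lay on steps that correspond to about 119000000 fragments in the non-induced and 122000000 in the induced group. Spi1, which encodes PU.1, had 36.0 FPKM before and 246 FPKM after induction (authors' deposited table, q = 0.000287). All 9 pro-B and B lineage markers examined were tested, with 7 higher and 0 lower, against 19.0% and 16.1% of all tested rows. Among the 7, Rag1 was at 0.00348 FPKM before and 0.434 FPKM after induction, so it entered the test only through the induced group. Of 5 T cell markers, 4 stayed under 0.1 FPKM in both groups. The summed level of 5 macrophage and granulocyte markers was 1.87 FPKM before and 7.20 FPKM after induction, most of it Cd68, which was called higher. Csf1r was listed at 0 before and 0.192 FPKM after induction and Itgam at 0.0133 and 0.151 FPKM, both untested, and Elane and S100a8 were listed at 0 in both groups. The part of these markers in the changes below was not tested.

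Of the 64 rows, 32 had been tested by the authors and 32 had not. Of the 32 tested members, 16 were called, meaning a deposited q-value under 0.05. Called members made up 50.0% of the tested ones, against 35.1% of all 10657 tested rows. Higher in induced cells were 9 members (28.1%, against 19.0% of all tested rows), and 7 were lower (21.9%, against 16.1%). Called and counted as at least 1.5-fold different were 5 members (15.6%, against 10.2%). These 5 were Ptpro, Ptprs, Ptpre, Ptprv and Dusp3. The other 11 called members differed by less than 1.5-fold. Rows at 0 in 1 group have no fold and were counted as at least 1.5-fold, Ptpro among them. Ptpro could enter the test only through the induced group, and it is also among the 9 members called higher. Across the 31 tested members above 0 in both groups the median log2 change was 0.01, beside -0.01 over all tested rows.

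**Figure D1:**
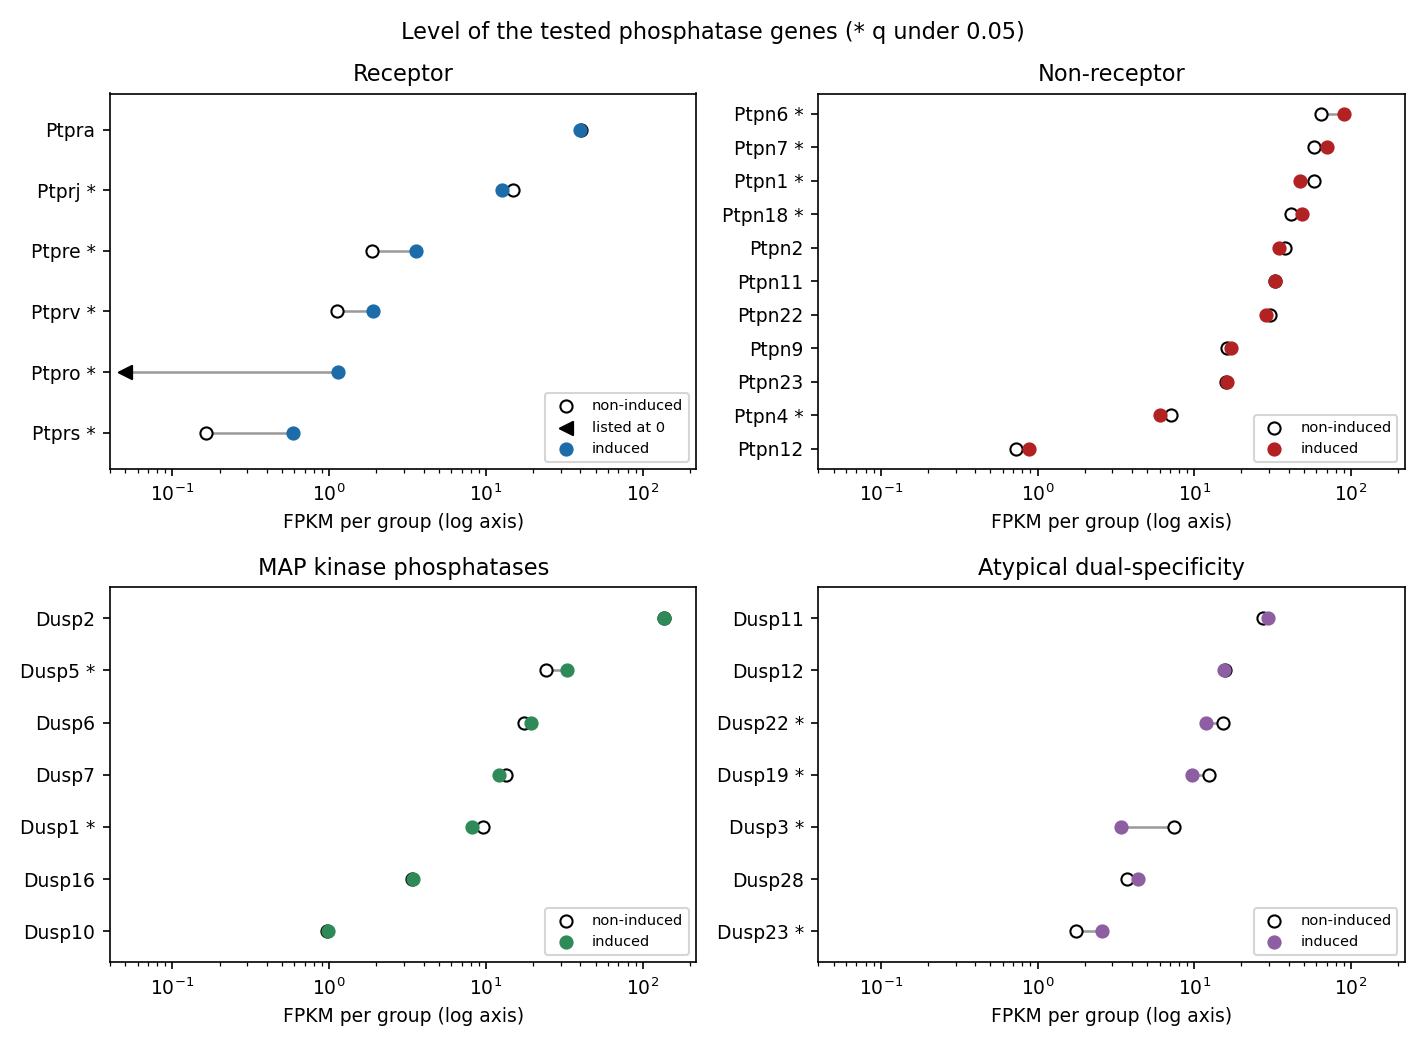
FPKM in non-induced (open) and induced cells (filled) for the 31 tested phosphatase genes, in 4 classes, on log axes, with called genes starred and no error shown because the table has none per group. Ptpro runs from a value listed at 0 to 1.14 FPKM, Dusp3 falls to 3.42 FPKM, and Dusp2 is the highest in both groups.

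The receptor class was tested in 6 of 21 genes, and 4 of these were higher and 1 lower. Of the tested genes 83.3% were called, against 35.1% of all tested rows. The 4 that rose were the 4 with the lowest levels of the 6. Since genes that are low in both groups were not tested, these counts do not describe the class as a whole. Ptpro, a receptor phosphatase of podocytes that also has a short lymphoid and myeloid form, was listed at 0 in non-induced cells and stood at 1.14 FPKM in induced cells (authors' deposited table, q = 0.000287). No fold is given for it, and it could enter the test only through the induced group. With the longest annotated transcript, 5096 bases, its induced value corresponds to about 706 fragments, and a shorter form would give fewer. The gene is protein-coding and spans chromosome 6 from 137252319 to 137463233 in mm10, plus strand.

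Ptprs encodes PTP sigma, a receptor for proteoglycans known from axon growth. It went from 0.165 to 0.591 FPKM, or 1.84 ± 0.29 on the log2 scale (authors' deposited table, q = 0.000287). The ± values here and below are standard errors implied by the deposited test statistic. Both values were low, and with 0.1 FPKM added to both groups the log2 change was 1.39. Ptpre encodes PTP epsilon, which has a membrane and a cytosolic form. Its level rose from 1.89 to 3.56 FPKM (log2 change 0.92 ± 0.17, authors' deposited table q = 0.000287). Ptprs and Ptpre share their file loci with other rows, of which 5830432E09Rik was the only one above 0, at 0.937 and 1.27 FPKM, and fragments can have been split between it and Ptpre. Ptprv, annotated as a processed transcript, stood at 1.13 and 1.92 FPKM (log2 change 0.76 ± 0.17, authors' deposited table q = 0.000287).

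Neither of the 2 abundant tested receptor genes was called higher. Ptpra, whose product activates Src family kinases, was the most abundant tested gene of the class at 40.6 and 39.6 FPKM. It was not called (authors' deposited table, q = 0.797). It held 69.0% of the summed FPKM of the class before induction and 66.4% after it. These sums take the untested Ptprc at its listed value near 0. Ptprj encodes CD148, which shares with CD45 the activation of Src family kinases in B cells and macrophages. Its level fell from 15.0 to 12.7 FPKM (log2 change -0.24 ± 0.17, authors' deposited table q = 0.0368). Of the receptor calls, those of Ptprs, Ptpre and Ptprv also held when p-values were taken from the test statistic as a normal deviate, and that of Ptprj was lost. Ptpro has no numeric statistic in the authors' deposited table.

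Ptprc is the receptor gene with the best known role in these cells. It was listed at 0.00608 FPKM before and 0.0649 FPKM after induction, and the authors had not tested it. On its longest annotated transcript, 5740 bases, these values correspond to about 4.2 and 45.4 fragments. Ptprcap, whose product binds CD45 at the membrane, was the most abundant row of the whole set at 313 and 302 FPKM but missed the threshold (authors' deposited table, q = 0.696). A value this close to 0 for Ptprc does not show that the transcript was absent. Its row was marked as not tested, not as failed, and the cause of the low value was not tested.

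Promoters were examined for short purine-rich strings, since the induced protein is an ETS factor. The 250 bases before each annotated start were searched on both strands for GAGGAA and for GGAAGT, which overlap by 4 bases in GAGGAAGT. Of 32851 windows in RefSeq's annotation of GRCm38.p6, 23.3% held GAGGAA, 19.7% held GGAAGT and 2.44% held GAGGAAGT. For 51 of the 64 rows at least 1 window was found, 68 windows in all, and 48.5% of these held GAGGAA or GGAAGT, against 36.7% of all windows. By gene, 5 of 8 members called higher had such a string in some window, as did 2 of 6 called lower, 6 of 13 not called and 12 of 24 not tested. Genes with several starts have more windows and so more chances of a match. Their windows can overlap and hold the same site, as those of Ptprc and Ptprr did. The share by gene was not computed over all genes, so these gene counts have no background. A string is a description of the letters and shows no binding.

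The windows of Ptpro, listed at 0 before induction, and Ptpre, the most abundant receptor gene that rose, are shown first, each read 5′ to 3′ on the strand of its gene, with matches in capitals and no capital where neither string occurs. The Ptpro window (GRCm38.p6, chr6:137252049-137252298, plus strand) has neither string. It lies before the 5′ end of the gene. No start inside Ptpro was searched, and which start these cells use was not tested. The Ptpre window shown (chr7:135605578-135605827, plus strand) is 1 of 3 for that gene, shown because it has GGAAGT, from 162 to 157 bases before the start. The window before the first Ptpre start has neither string, and the remaining one has GAGGAA only.
Ptpro: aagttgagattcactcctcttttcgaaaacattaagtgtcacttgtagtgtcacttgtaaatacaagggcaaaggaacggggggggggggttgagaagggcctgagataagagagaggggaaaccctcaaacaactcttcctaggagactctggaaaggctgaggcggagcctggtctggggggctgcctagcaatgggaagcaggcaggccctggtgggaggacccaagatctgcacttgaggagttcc
Ptpre: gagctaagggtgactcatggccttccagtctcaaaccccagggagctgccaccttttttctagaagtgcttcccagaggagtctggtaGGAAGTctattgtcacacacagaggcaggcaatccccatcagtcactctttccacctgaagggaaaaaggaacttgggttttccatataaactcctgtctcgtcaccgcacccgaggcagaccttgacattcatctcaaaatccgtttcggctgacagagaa

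Non-receptor phosphatases were tested in 11 of 17 genes. Of these 3 rose, 2 fell and 6 were not called, so 45.5% were called, against 35.1% of all tested rows. This was the class with the highest typical level, a median of 32.8 FPKM against 16.0 FPKM over all tested rows, and its summed FPKM was 362 in non-induced and 392 in induced cells. Ptpn6, which encodes SHP-1, had the largest change of the class. It went from 64.0 to 89.8 FPKM (log2 change 0.49 ± 0.15, authors' deposited table q = 0.000287). Its share of the summed FPKM of the class went from 17.7% to 22.9%. Ptpn11 encodes SHP-2, the close relative of SHP-1 that promotes growth factor signalling. It stood at 32.8 FPKM in both groups (log2 change -0.00 ± 0.15, authors' deposited table q = 0.991). The difference between the changes of Ptpn6 and Ptpn11 was not tested.

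Ptpn7 and Ptpn18 rose by less. Ptpn7, a haematopoietic phosphatase of ERK and p38, was at 58.2 and 70.0 FPKM (log2 change 0.27 ± 0.14, authors' deposited table q = 0.00570). Ptpn18, a PEST family phosphatase, was at 41.2 and 48.7 FPKM (log2 change 0.24 ± 0.13, authors' deposited table q = 0.0153). The 2 that fell were Ptpn1 and Ptpn4. Ptpn1 encodes PTP1B, which dephosphorylates insulin receptor and JAK kinases, and went from 57.7 to 47.2 FPKM (log2 change -0.29 ± 0.14, authors' deposited table q = 0.00196). For Ptpn4, a phosphatase with FERM and PDZ domains, the values were 7.14 and 6.01 FPKM (log2 change -0.25 ± 0.16, authors' deposited table q = 0.0158). In non-induced cells Ptpn7 and Ptpn1 lay within 1 FPKM of each other, and in induced cells they stood at 70.0 and 47.2 FPKM. Of the class, Ptpn6 alone kept its call with normal p-values. The calls of Ptpn7, Ptpn18, Ptpn1 and Ptpn4 were lost.

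Other abundant regulators of lymphocyte signalling were not called. Ptpn2, which encodes TC-PTP, a phosphatase of JAK1, JAK3 and STAT proteins, was at 37.8 and 34.7 FPKM (authors' deposited table, q = 0.315). Ptpn22, which encodes the Src family regulator PEP, was at 30.4 and 28.5 FPKM (authors' deposited table, q = 0.423). Ptpn9, Ptpn23 and Ptpn12 were not called either. Of the 6 untested genes, Ptpn3, Ptpn5 and Ptpn20 were listed at 0 in both groups, and Ptpn13, Ptpn14 and Ptpn21 reached at most 0.00572 FPKM.

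Ptpn7 and Ptprv are close neighbours. Ptprv lies on the minus strand of chromosome 1 at 135108497 to 135132594, and Ptpn7 on the plus strand at 135132700 to 135145317. The starts face away from each other with 105 bases between the genes, and both were called higher. No other members of separate loci that were both tested lay within 100000 bases of each other. The window before the first Ptpn7 start (GRCm38.p6, chr1:135132450-135132699, plus strand) therefore also covers the start of Ptprv, and it has GAGGAA from 16 to 11 bases before the Ptpn7 start. The Ptpn6 window (chr6:124738710-124738959, minus strand) is shown because this gene changed most in its class, and it has GGAAGT from 101 to 96 bases before the start and the opposite-strand form from 190 to 185 bases before it.
Ptpn7: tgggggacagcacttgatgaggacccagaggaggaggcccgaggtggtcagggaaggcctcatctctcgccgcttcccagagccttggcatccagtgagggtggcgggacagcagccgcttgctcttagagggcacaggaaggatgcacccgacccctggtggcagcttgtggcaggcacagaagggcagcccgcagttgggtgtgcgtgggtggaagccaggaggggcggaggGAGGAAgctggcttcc
Ptpn6: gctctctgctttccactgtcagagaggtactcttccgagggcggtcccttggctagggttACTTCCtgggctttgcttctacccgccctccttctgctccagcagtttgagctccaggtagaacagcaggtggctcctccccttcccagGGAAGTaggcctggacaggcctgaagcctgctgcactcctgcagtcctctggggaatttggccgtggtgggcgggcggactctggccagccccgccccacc

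**Figure D2:**
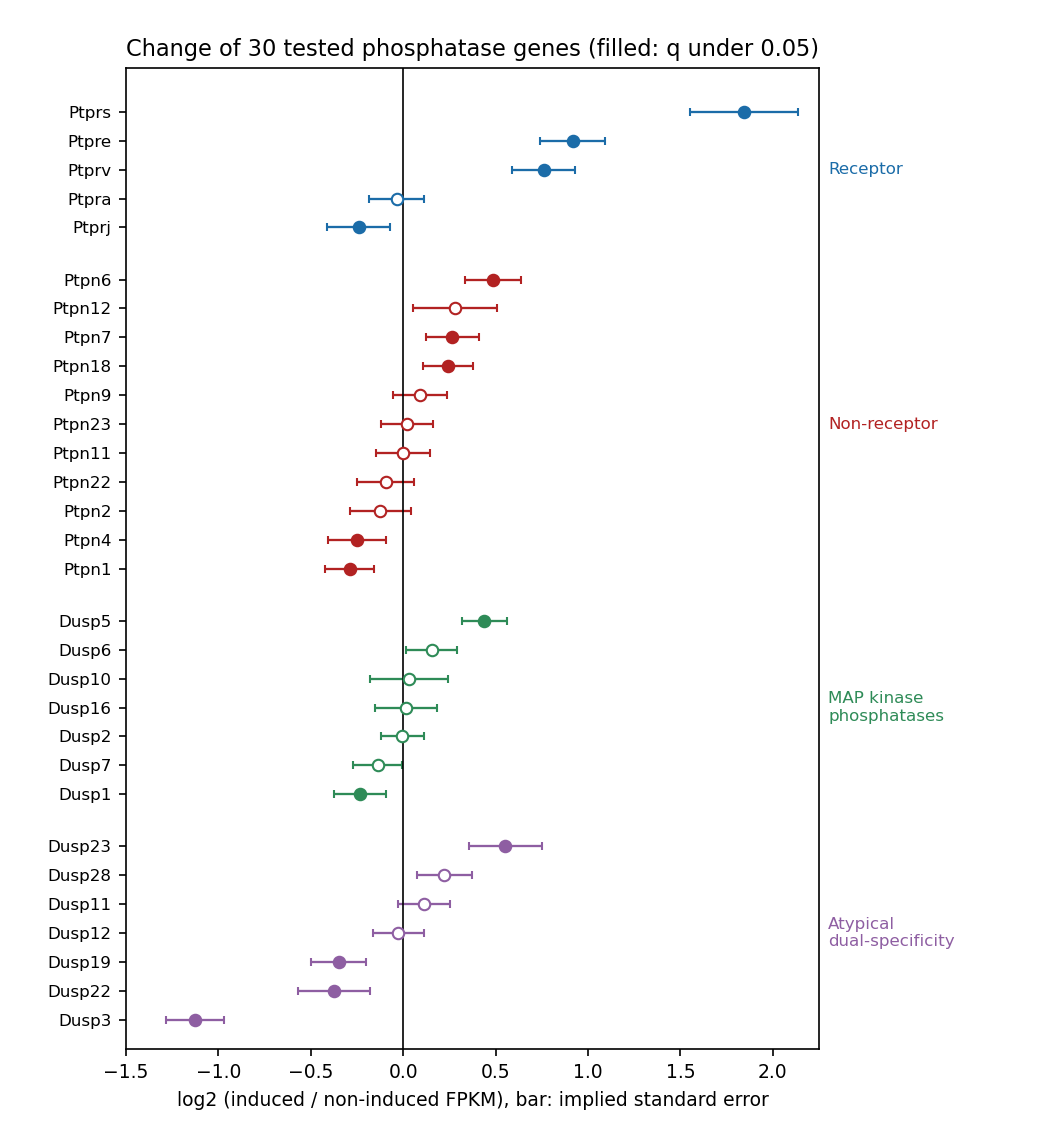
The log2 ratio of induced to non-induced FPKM for 30 tested phosphatase genes, grouped by class, with bars of 1 implied standard error and called genes filled. Ptprs, Ptpre and Ptprv lie farthest to the right and Dusp3 farthest to the left, while Ptpn11, Dusp2 and Dusp16 lie at 0; Ptpro has no ratio and is not drawn.

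MAP kinase phosphatases were tested in 7 of 10 genes, with 1 higher, 1 lower and 5 not called, so 28.6% were called, against 35.1% of all tested rows. Dusp2, a nuclear phosphatase of ERK and p38 found in activated lymphocytes, was the most abundant tested phosphatase of the whole set. It stood at 137 FPKM in both groups (log2 change -0.01 ± 0.12, authors' deposited table q = 0.974). That was 66.6% of the summed FPKM of its class before induction and 64.0% after it. Dusp5, a nuclear phosphatase specific for ERK, was the 1 that rose. It went from 24.2 to 32.8 FPKM (log2 change 0.44 ± 0.12, authors' deposited table q = 0.000287). Dusp6, its cytosolic counterpart for ERK, was at 17.5 and 19.5 FPKM but missed the threshold (authors' deposited table, q = 0.158). Dusp1, an immediate early gene that acts mainly on p38 and JNK, fell from 9.55 to 8.12 FPKM (log2 change -0.23 ± 0.14, authors' deposited table q = 0.0461). The Dusp1 call was lost with normal p-values, and that of Dusp5 was kept.

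The remaining tested genes of this branch were Dusp7 at 13.3 and 12.1 FPKM, Dusp16 at 3.39 and 3.42 FPKM and Dusp10 at 0.964 and 0.986 FPKM. None of them was called. Dusp4, Dusp8 and Dusp9 were not tested, and Dusp4 was the highest of these at 0.0619 and 0.0901 FPKM. Among the 68 searched windows, that of Dusp5 was the only one with the joined string GAGGAAGT, here on the opposite strand, from 193 to 186 bases before the start. The window (GRCm38.p6, chr19:53528895-53529144, plus strand) is shown for that reason.
Dusp5: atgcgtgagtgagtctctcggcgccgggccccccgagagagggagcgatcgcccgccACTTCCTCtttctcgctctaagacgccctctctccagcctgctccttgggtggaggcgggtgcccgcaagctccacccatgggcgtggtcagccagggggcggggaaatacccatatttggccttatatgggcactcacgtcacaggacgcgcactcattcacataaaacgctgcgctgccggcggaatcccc

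Atypical dual-specificity phosphatases are smaller, lack the MAP kinase docking domain and have varied substrates. They were tested in 7 of 14 genes, with 3 lower, 1 higher and 3 not called, so 57.1% were called, against 35.1% of all tested rows. With normal p-values the class had 1 lower and 1 higher. The summed FPKM of the class was 83.7 in non-induced and 76.8 in induced cells. Dusp3 encodes VHR, a phosphatase of ERK and JNK linked to cell cycle progression, and had the largest log2 fall of the tested members. It went from 7.45 to 3.42 FPKM (log2 change -1.12 ± 0.16, authors' deposited table q = 0.000287), which was 0.459 of the non-induced value. Among the tested phosphatases it moved from rank 21 to rank 25 by level. Dusp3 lies on the minus strand of chromosome 11 at 101971143 to 101987013 (mm10, protein-coding).

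Dusp22 and Dusp19 fell by less. Dusp22 encodes JKAP, which acts on the JNK pathway and on the kinase Lck, and its values were 15.3 and 11.8 FPKM (log2 change -0.37 ± 0.19, authors' deposited table q = 0.00281). Dusp19, a JNK pathway phosphatase, was at 12.3 and 9.69 FPKM (log2 change -0.35 ± 0.15, authors' deposited table q = 0.00151) and shares its file locus with another row. The 1 that rose was Dusp23, a small phosphatase, from 1.75 to 2.56 FPKM (log2 change 0.55 ± 0.20, authors' deposited table q = 0.000287). With normal p-values the calls of Dusp3 and Dusp23 were kept and those of Dusp22 and Dusp19 were lost. Dusp11, a phosphatase of RNA 5′ ends, was the most abundant of the class at 27.3 and 29.5 FPKM and was not called, as were Dusp12 and Dusp28. Of the untested genes, Dusp14, which acts on the kinase adaptor TAB1, was listed at 0.0990 and 0.0415 FPKM, about 18.5 and 7.9 fragments on its longest transcript.

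The order of levels was much the same in both groups. By FPKM, which is scaled by length, the 5 highest tested phosphatases were Dusp2, Ptpn6, Ptpn7, Ptpn1 and Ptpn18 in non-induced cells. The same 5 led in induced cells with Ptpn18 ahead of Ptpn1. Dusp5 moved from rank 11 to rank 8 of the 31 tested. Without a spread per group, neighbours in this order cannot be separated from each other. The 32 untested members were all under 0.1 FPKM in both groups: 15 were listed at 0 in both, and 17 had some value above 0. Only 4 of the 32 reached 0.02 FPKM, namely Ptprc, Ptprn, Dusp4 and Dusp14. None was marked as a failed row. Ptprn, a catalytically inactive relative from secretory granules, was listed at 0.0804 and 0.0329 FPKM. Of the 15 untested receptor genes, Ptprk, Ptprm, Ptprn2, Ptprq, Ptprr and Ptprz1 were listed at 0 in both groups. Besides Ptprc and Ptprn, the others were Ptpru at 0.00422 and 0.0103 FPKM and Ptprb, Ptprd, Ptprf, Ptprg, Ptprh and Ptprt, which were all lower than Ptpru in the induced group.

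**Figure D3:**
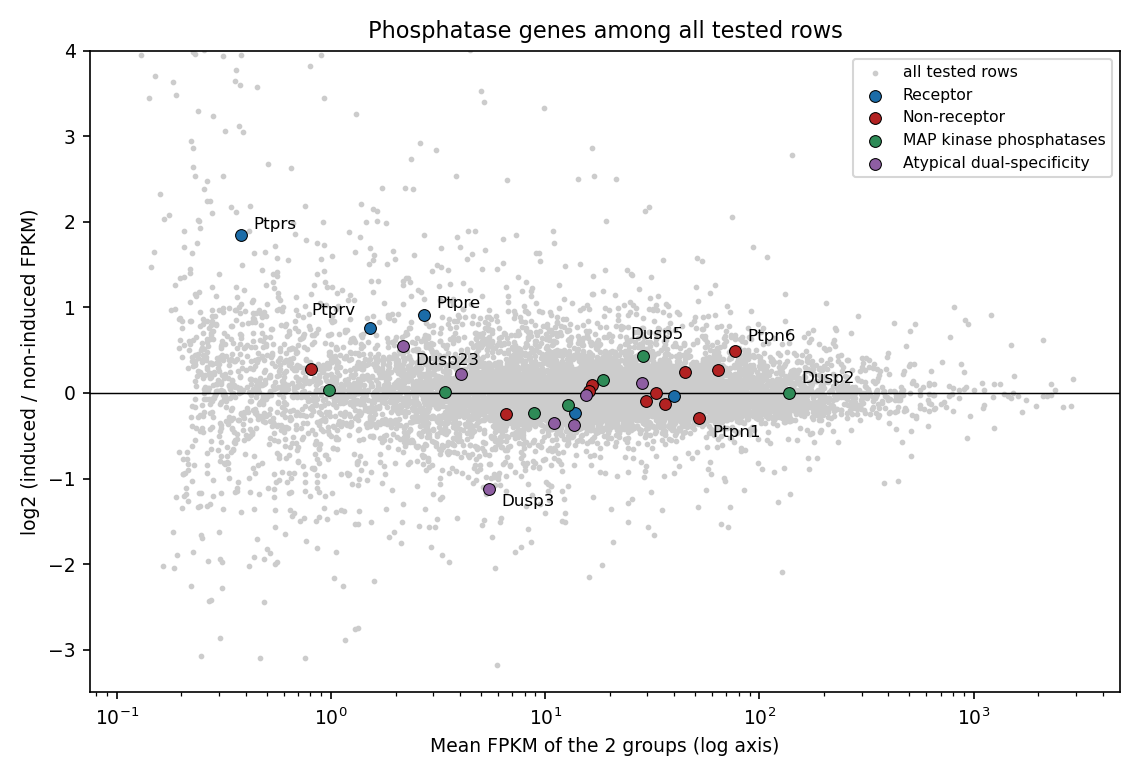
Mean FPKM of both groups on a log axis against the log2 ratio of induced to non-induced FPKM, with tested rows above 0 in both groups in grey and phosphatase genes coloured by class; 49 of these rows lie beyond the vertical axis. Dusp2 lies at 0 and Ptpn6 at 0.49, and Ptprs, Ptpre and Ptprv lie at low levels, as do many other rows with large ratios.

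The genes that these phosphatases oppose or depend on were also examined. Of 12 tested inhibitory receptors and docking proteins listed as recruiting SHP-1 or SHP-2, 7 were higher and 1 lower. Of these 12, Cd33, Clec12a and Pirb were under 0.1 FPKM before induction and entered the test only through the induced group, so neither the share of calls nor the median change of the list is read. Among the called genes above 0 in both groups, Fcgr2b (log2 2.51), Siglecg (1.22) and Pecam1 (0.97) had the largest rises by the authors' FPKM values. Which phosphatase their products recruit in these cells was not tested. Cd33 was listed at 0 and at 1.99 FPKM and was called, while Clec12a and Pirb were not. Cd22, which recruits SHP-1 to the B cell receptor, fell (log2 -1.57). Of 19 tested tyrosine kinases and adaptors of antigen receptor and cytokine signalling, 11 were higher and 3 lower (73.7% called, against 35.1% of all tested rows, median log2 0.27). Syk (log2 1.58), Lyn (1.03), the Src family kinase that phosphorylates those inhibitory receptors, and Jak2 (0.59) had the largest rises. Zap70 (-1.16), Lck (-0.52) and Pag1 (-0.36) fell. Earlier results on these samples were known when the lists were drawn up, so they give no independent evidence of direction.

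Of 29 tested genes of the MAP kinase cascade, 9 were higher and 3 lower (41.4% called, against 35.1% of all tested rows, median log2 0.07). The p38 effector gene Mapkapk2 (log2 1.02), the stress kinase gene Map3k5 (0.57) and the ERK5 gene Mapk7 (0.41) had the largest rises. Mapkapk3 (-0.86), Mapk11 (-0.51) and Map2k6 (-0.26) fell. Of 15 tested ERK feedback and immediate early genes, 9 were lower and 4 higher (86.7% called, against the same 35.1%, median log2 -0.42). Egr2 (-1.94), Egr3 (-1.92) and Egr1 (-1.13) fell most, and Dusp1, often induced with them, fell by 0.23 on the log2 scale. Egr2 (0.482 and 0.126 FPKM) and Egr3 (0.692 and 0.183 FPKM) were low in both groups. With 0.1 FPKM added to both groups their log2 changes were -1.37 and -1.49. Ier3 (1.85), Spred1 (0.68) and Etv5 (0.48) rose. Of the 7 tested MAP kinase phosphatase genes, only Dusp5 rose and only Dusp1 fell, and Dusp2 and Dusp6 were among the 5 not called.

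Among phosphatases outside the 3 name families, 19 were tested, of which 4 were higher and 3 lower (36.8% called, against 35.1% of all tested rows, median log2 0.01). Ssh3 and Ssh1, which act on cofilin, had log2 changes of 0.63 and 0.35 and Cdkn3, a phosphatase of cyclin-dependent kinases, one of 0.55. Eya2 (log2 -1.56), a phosphatase and transcription cofactor, Ptp4a3 (-0.28) and the mitochondrial phosphatase gene Ptpmt1 (-0.25) fell.

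**Figure D4:**
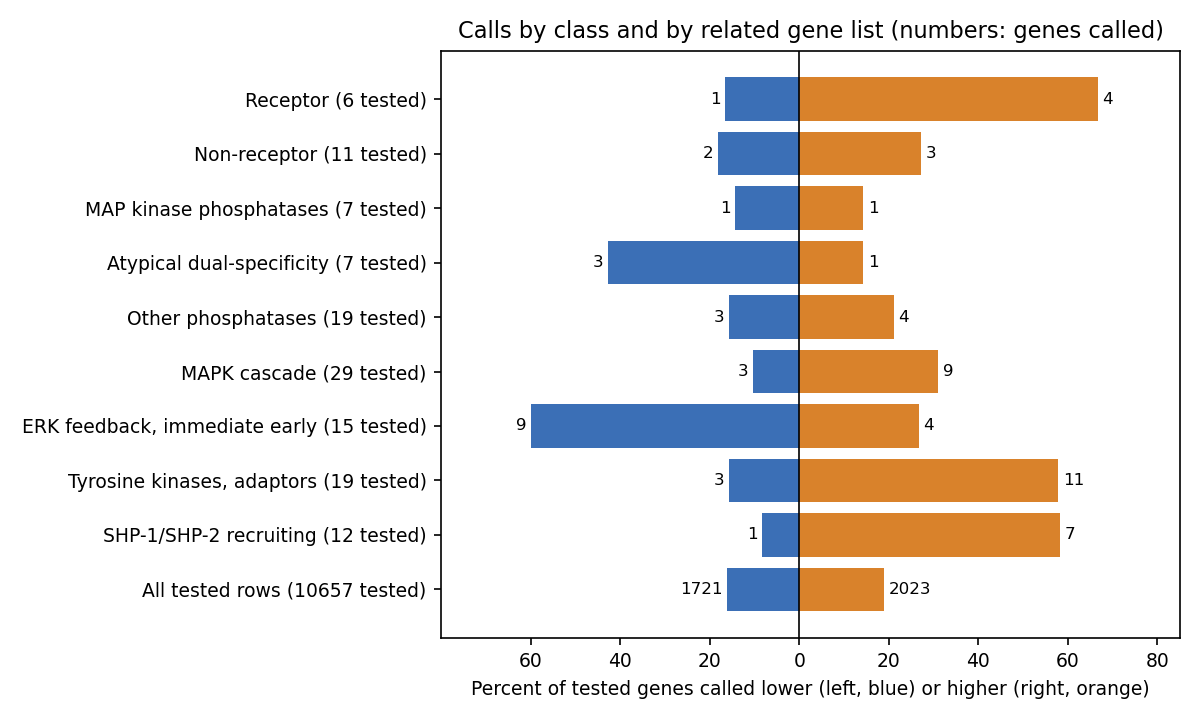
Percent of tested genes called lower (bars to the left) or higher (bars to the right) in induced cells for the 4 phosphatase classes, 5 related gene lists and all tested rows, with the number of genes called at each bar. The bar of genes listed as recruiting SHP-1 or SHP-2 is not read, since Cd33, Clec12a and Pirb entered the test only through the induced group. Of the tested receptor phosphatases 4 of 6 were higher, against 19.0% of all tested rows. Ptpro, among these, could enter the test only through the induced group. Of the atypical dual-specificity phosphatases 3 of 7 were lower, against 16.1% of all tested rows, a count that was 1 of 7 with normal p-values.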

How the data were processed

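RNA from 3 non-induced and 3 induced samples was sequenced as stranded mRNA libraries, per the labels' protocols. The submitters' processing notes name Trim Galore 0.2.8.1, TopHat2 2.0.9, Cufflinks, Cuffdiff 2.1.1 and mm10. The gene annotation was not given in the sources used here, nor was the strand setting. The submitters' file holds, as deposited, FPKM values (1 per gene and group), a test statistic (score), p-values and q-values, all made by the authors per the file headers. The q-values differed from Benjamini-Hochberg values over the 10657 tested rows by at most 5.15e-07, and the smallest, 0.000287, was shared by 1855 rows.

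Log2 changes were computed from the deposited FPKM values, with no pseudocount. Normal p-values took that statistic as a standard normal deviate. The implied standard error is the log2 change divided by the statistic, a relation the table does not state. Group depth was estimated from FPKM times length over genes that have a single annotated transcript, 1 kb or longer. The step kept was the one, of many tried, at which the low values agreed best with whole fragments. At that step 70.1% (non-induced) and 63.8% (induced) of low values lay within 0.15 of a whole fragment. Evenly spread values would give 30% at a step fixed beforehand, so part of the excess can come from choosing the step. Gene positions are from GENCODE M21 (mm10), where all 64 symbols were found. Fragments of overlapping genes can have been split between rows. The named genes are all called members, Ptprc, the 5 most abundant members that were tested and not called, and the 3 largest called changes each way in the related lists. Other genes given with values, among them Ptpn22, Dusp6, Dusp7, Dusp10, Dusp11, Dusp16, Dusp4, Dusp14, Ptprn and Cd33, were chosen after their values were seen. Members, classes and lists were chosen with earlier results of these data known. Alternatives covered a q-value threshold of 0.01, normal p-values, a mean of at least 1 FPKM, shared loci left out, 1.5-fold, Ptprcap left out, a pseudocount of 0.1 FPKM and median centring. Python 3.11.15, pandas 2.3.3, numpy 2.4.6, scipy 1.17.1 and matplotlib 3.10.9 were used, and the adjustment was tested on simulated data.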

Additional observations from a re-analysis of the deposited data

How the results depend on the processing

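The main counts were 9 members higher and 7 lower. They were 8 and 4 at a q-value under 0.01 (12 of 32 tested members, beside 25.9% of all tested rows). Dusp1, Ptpn18, Ptpn4 and Ptprj did not reach that threshold. With normal p-values from the statistic the counts were 6 and 1 (7 of 31, beside 15.2% of all rows with a statistic). Ptpro could not be scored there. At 1.5-fold they were 4 and 1 (5 of 32, with Ptpro counted though it has no fold, beside 10.2% of all tested rows). Over rows with a mean of at least 1 FPKM they were 7 and 7 (14 of 28, beside 34.8% of all such rows). Without shared loci they were 7 and 6 (13 of 27, beside 38.1%), and without Ptprcap 9 and 7 (16 of 31, beside 35.1%). All 7 members called with normal p-values were among the 16. Centring on the median of tested rows (log2 -0.01) moved none of 20 log2 changes by more than their implied standard error, and a pseudocount of 0.1 FPKM moved 1 of 20, that of Ptprs. No paired analysis was possible because the table holds 1 value per group, and for the same reason no library could be left out. For the untested members, all under 0.1 FPKM, no change can be read, and the cause of their low values was not tested.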
